A study of Mus musculus with 6 samples.

Results

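Choline phospholipid metabolism was examined here through 9 genes that make phosphatidylcholine, or take it apart, in the gastrocnemius muscle of young and aged mice. They were chosen by what they encode. The genes are Chka, Chkb, Pcyt1a, Chpt1, Cept1, Pemt, Lypla1, Lypla2 and Gpcpd1, and their probes were found by matching the RefSeq accession of each probe to a mouse gene symbol. All 9 genes were on the array, among 36717 genes or unnamed transcripts in all, with 16 of its 55681 probes. All 16 probes passed the detection filter (3 or more of the 6 arrays well above background), as did 28002 probes in all, so no gene of the 9 was lost to the filter on dim probes.

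The samples were total RNA of the gastrocnemius of male C57BL/6J mice, 3 young (13 weeks of age) and 3 aged (26 months of age), with 1 single-colour Agilent array per mouse. Both groups were kept on standard diet, and neither carried a transgene or received a treatment that the labels or methods name. The values were the processed signal of each spot, given here as a multiple of the 75th percentile over the probes of its array or as the log2 of that multiple. Between 49.9% and 54.8% of spots were well above background on each array.

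Phosphatidylcholine is the main phospholipid of muscle membranes. In the CDP-choline (Kennedy) route, choline is phosphorylated, activated with CTP to CDP-choline, and joined to diacylglycerol. Phosphatidylcholine can also be made by methylation of phosphatidylethanolamine, a route best known from liver. In breakdown, phospholipases and lysophospholipases remove the fatty acids in turn, which leaves glycerophosphocholine, and a phosphodiesterase splits that into choline and glycerol 3-phosphate. The question put to the arrays was whether the genes of these steps differed in expression between young and aged muscle.

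Gpcpd1, which encodes the phosphodiesterase that splits glycerophosphocholine, had the largest difference of the 9 genes and was lower in every aged mouse than in any young mouse. Pcyt1a, which encodes the cytidylyl transferase that makes CDP-choline, was also lower in every aged mouse, by a smaller amount. The other 7 genes overlapped between the groups. No gene of the 9 passed an adjusted p of 0.05 in limma (Benjamini-Hochberg adjustment over all 20900 genes tested), a threshold passed by 0.254% of all genes, 0.196% higher and 0.0574% lower in aged mice. At an unadjusted p under 0.05 in limma there were 2 of the 9, both lower in aged mice, against 14.4% of all genes, 6.07% higher and 8.36% lower. The same 2 genes had groups that did not overlap, with the aged mice below the young, as did 13.9% of all genes (21.8% in either direction, with 7.92% the other way). The mean was lower in aged mice for 7 of the 9 genes and for 56.9% of all genes. The median log2 fold change (aged minus young) was -0.08 over the 9 genes and -0.06 over all genes tested. Leaving out aged mouse 1 moved the median of the 9 genes to -0.38. Compared with the other aged mice, aged mouse 1 was higher for Chka, Chkb and Chpt1 and lower for Cept1, Lypla1 and Lypla2, and with the row of the slide as a block, where aged mouse 1 stands for the aged group, 5 of the 7 overlapping genes changed sign.

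**Figure D1:**
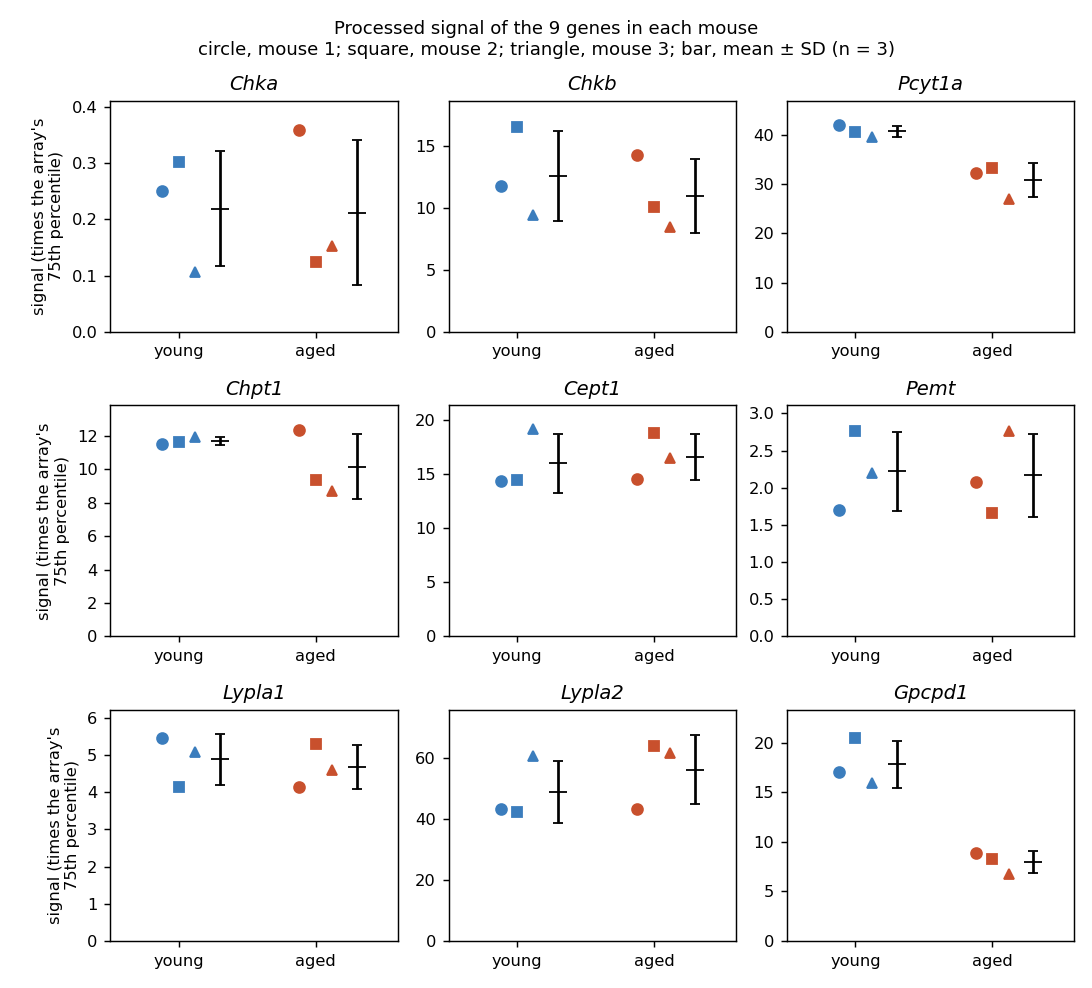
Processed signal of the 9 genes, each from its brightest probe, in multiples of the 75th percentile of the array (vertical axis, from 0, a separate scale for each gene) in young and aged mice. Symbols mark mice 1 to 3 and bars the mean ± SD (n = 3). Gpcpd1 lay between 15.95 and 20.5 in young and between 6.72 and 8.89 in aged mice, and Pcyt1a between 39.6 and 41.8 and between 26.9 and 33.2, whereas the other genes overlapped.

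Gpcpd1, also known as Gde5, is abundant in skeletal muscle and was represented by 1 probe (NM_001042672). Its signal was 17.1, 20.5 and 15.95 times the 75th percentile in the young group (mice 1 to 3 in turn), against 8.89, 8.29 and 6.72 times in the aged group. The highest aged mouse was thus well below the lowest young mouse. Before any scaling between arrays the signal of the probe was between 3339 and 5302.5 in young mice and between 1817 and 2761 in aged mice, so that the groups were also apart in the signals as deposited. On the log2 scale the level was 4.15 ± 0.19 (SD, n = 3) in young mice, against 2.98 ± 0.21 (SD, n = 3) in aged ones. The log2 fold change was -1.16 (standard error 0.19, 95% interval -1.61 to -0.72), or 0.446-fold, and the adjusted p from limma was 0.0836. By its p, Gpcpd1 ranked 118 of the 20900 genes tested, and by its log2 fold change it ranked 334 from the lowest. In bulk muscle, fewer cells of a type and less RNA per cell cannot be told apart.

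The difference in Gpcpd1 was not carried by a single mouse. Leaving out each mouse in turn gave a log2 fold change between -1.25 and -1.05, with adjusted p between 0.0617 and 0.284 from limma. The 6 arrays lay on 1 slide, with the 3 young mice and aged mouse 1 in row 1 and aged mice 2 and 3 in row 2. Within row 1, aged mouse 1 differed from the mean of the young mice by -0.997 on the log2 scale, and this was also the value with the row as a block (adjusted p = 0.253 from limma). Aged mice 2 and 3 differed from that mean by -1.10 and -1.40. Row 2 held no young mouse, so aged mouse 1 was the only aged mouse that could be compared within a row.

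Pcyt1a encodes CTP:phosphocholine cytidylyl transferase alpha, the enzyme usually held to limit the rate of the CDP-choline route, and was represented by 1 probe (NM_001163159). Its signal was 41.8, 40.6 and 39.6 times the 75th percentile in the young group (mice 1 to 3 in turn), against 32.2, 33.2 and 26.9 times in the aged group. The young mice were close together, and the aged mice were all lower and more scattered. The log2 level was 5.35 ± 0.04 (SD, n = 3) in young mice, against 4.94 ± 0.16 (SD, n = 3) in aged ones. The log2 fold change was -0.41 (standard error 0.16, 95% interval -0.78 to -0.03), or 0.753-fold, and the adjusted p from limma was 0.317. Unlike Gpcpd1, Pcyt1a overlapped before scaling, at 8290 to 12544 in young and 7274 to 10008 in aged mice, so that its separation rests on the scaling between arrays. Leaving out each mouse in turn gave -0.47 to -0.31, and aged mouse 1 within row 1 gave -0.34. Bright probes in general were lower in aged mouse 1. Over the 2533 genes with a mean log2 level above 5, the median difference from the young mean was -0.25, -0.02 and -0.09 in aged mice 1, 2 and 3, and the part of this in the value of Pcyt1a was not tested.

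The sequence upstream of Pcyt1a is shown because, of the 2 genes without overlap, it was the one with an entry in the promoter table used (RefSeq, GRCm38.p6). That table listed 7 of the 9 genes, and Gpcpd1 and Lypla1 were the others. The 250 bases before the first listed start of Pcyt1a lie at chr16:32430671-32430920 on the plus strand. Capitals mark the GC box, GGGCGG on either strand, the letters bound by Sp1-type factors.
Pcyt1a upstream: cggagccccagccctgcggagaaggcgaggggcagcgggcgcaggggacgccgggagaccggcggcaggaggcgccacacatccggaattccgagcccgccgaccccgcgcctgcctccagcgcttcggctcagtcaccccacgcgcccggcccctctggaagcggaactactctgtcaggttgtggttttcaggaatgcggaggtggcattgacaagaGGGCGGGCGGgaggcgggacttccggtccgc
These bases held 2 GC boxes that overlap each other, close to the start. A GC box was present in 32.7% of the 32851 upstream windows of the same length in the table, and in 8 of the 12 windows of the 7 listed genes, with none in those of Pemt. The letters CCAAT, searched on both strands, were found in 33.8% of all windows and in 4 of the 12, though in none of Pcyt1a, and CACGTG (the E-box) in 6.02% and in 0 of the 12. Windows of 1 gene overlap in part. Such a match describes the letters only. Pcyt1a has 3 listed starts, between which the array did not distinguish.

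**Figure D2:**
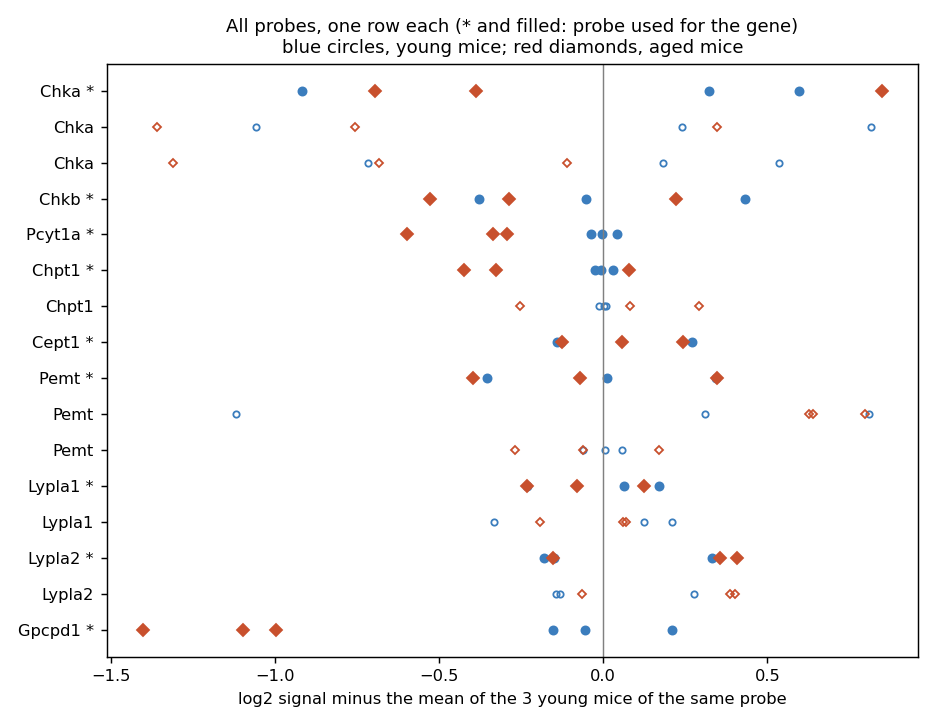
Log2 signal of each mouse minus the mean of the 3 young mice (horizontal axis) for all 16 probes, 1 row per probe. Filled symbols with an asterisk mark the probe used for the gene. Aged mice lay from -1.40 to -0.997 for Gpcpd1 and from -0.60 to -0.29 for Pcyt1a, while for the other probes young and aged mice are mixed.

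The choline kinases begin the route by phosphorylating choline. Chkb, whose loss in mice causes a muscular dystrophy, gave 11.8, 16.5 and 9.41 times the 75th percentile in the young group (mice 1 to 3 in turn), against 14.3, 10.03 and 8.49 times in the aged group. The groups overlapped, and the highest aged value, in mouse 1, exceeded 2 of the 3 young values. The log2 fold change was -0.20 (95% interval -0.87 to 0.48, adjusted p = 0.774 from limma), an interval that leaves room for a sizeable difference in either direction. Chka, the other kinase, had dim probes. Its brightest probe gave 0.250, 0.303 and 0.106 times the 75th percentile in the young group (mice 1 to 3 in turn), against 0.360, 0.123 and 0.153 times in the aged group, a log2 fold change of -0.08 (95% interval -1.33 to 1.17, adjusted p = 0.953 from limma). The interval is the widest of the 9 genes, since the mice of each group were far apart. The other Chka probes gave -0.70 and -0.59, with overlapping groups, and were well above background on 5 and 3 of the 6 arrays. For both kinases young mouse 3 was the lowest young mouse and aged mouse 1 the highest aged mouse.

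The last step of the route is catalysed by Chpt1, which uses CDP-choline, and by Cept1, which accepts both CDP-choline and CDP-ethanolamine. Chpt1 gave 11.5, 11.7 and 11.96 times the 75th percentile in the young group (mice 1 to 3 in turn), against 12.4, 9.35 and 8.73 times in the aged group. Aged mice 2 and 3 were below, and aged mouse 1 above, a narrow young range. The log2 fold change was -0.22 (95% interval -0.66 to 0.21, adjusted p = 0.598 from limma), and it was -0.38 without aged mouse 1. A dimmer Chpt1 probe gave 0.04, so the probes of this gene did not share a direction. Cept1 gave 14.4, 14.5 and 19.1 times the 75th percentile in the young group (mice 1 to 3 in turn), against 14.5, 18.8 and 16.5 times in the aged group. These ranges nearly coincide, with a log2 fold change of 0.06 (95% interval -0.40 to 0.51, adjusted p = 0.904 from limma).

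Pemt, which methylates phosphatidylethanolamine to phosphatidylcholine, was detected on all 6 arrays by 3 probes, although its best known site is liver. The brightest gave 1.70, 2.76 and 2.19 times the 75th percentile in the young group (mice 1 to 3 in turn), against 2.08, 1.65 and 2.77 times in the aged group. The groups covered the same range, and the log2 fold change was -0.04 (95% interval -0.67 to 0.59, adjusted p = 0.952 from limma). The other Pemt probes gave -0.05 and 0.69. The latter was set by young mouse 3, at 0.149 times the 75th percentile against 0.401 to 0.567 in the other 5 mice.

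Lypla1 and Lypla2 encode related hydrolases that were first described as lysophospholipases, and that also remove palmitate from proteins as acyl-protein thioesterases. Lypla2 gave 43.4, 42.5 and 60.6 times the 75th percentile in the young group (mice 1 to 3 in turn), against 43.3, 63.8 and 61.6 times in the aged group. Young mouse 3 and aged mice 2 and 3 were high and the other mice low, so the groups overlapped. The log2 fold change was 0.20 (95% interval -0.35 to 0.76, adjusted p = 0.712 from limma), and the other Lypla2 probe gave 0.24. Lypla1 gave 5.46, 4.13 and 5.07 times the 75th percentile in the young group (mice 1 to 3 in turn), against 4.13, 5.29 and 4.59 times in the aged group. Its log2 fold change was -0.06 (95% interval -0.50 to 0.38, adjusted p = 0.893 from limma), with -0.02 for the other probe. Probe sequences were not used here, so signal shared between these related transcripts was not tested.

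**Figure D3:**
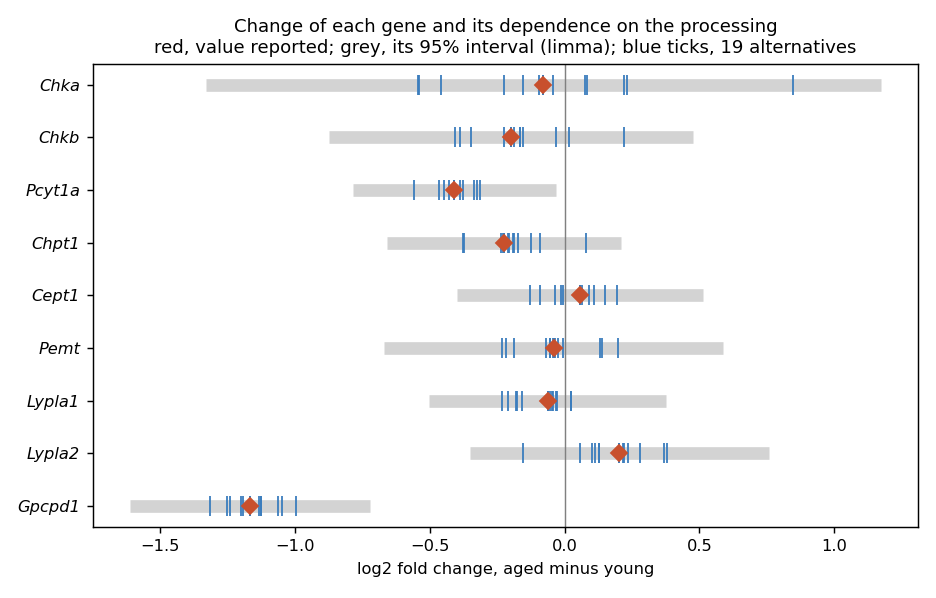
Log2 fold change, aged minus young, of the 9 genes (horizontal axis). Red diamonds are the values reported, grey bars their 95% intervals from limma, and blue ticks the values under the 19 processing alternatives. Gpcpd1 stayed between -1.31 and -0.997 and Pcyt1a between -0.56 and -0.31, whereas the ticks of each of the other 7 genes lie on both sides of 0.

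The other genes of choline phospholipid metabolism were taken from 8 lists of 83 genes, chosen by what they encode, of which 61 were tested. None of the 61 passed an adjusted p of 0.05 in limma. There were 9 with an unadjusted p under 0.05 (14.8%, against 14.4% of all genes), 4 higher and 5 lower in aged mice. The groups did not overlap for 16 genes (26.2%, against 21.8% of all genes), and the median log2 fold change was -0.09. These shares are near those of all genes. Of the 6 other genes listed for glycerophosphodiester breakdown 3 were tested, and Gde1 (0.05), Gdpd5 (-0.05) and Gdpd1 (0.17) gave log2 fold changes near 0 with overlapping groups. The difference between these genes and Gpcpd1 was not itself tested.

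Of the 16 genes tested among the phospholipases and lysophospholipases, 13 were lower in mean in aged mice (81.2%, against 56.9% of all genes), and for 6 of them the aged mice all lay below the young mice (37.5%, against 13.9%). At an unadjusted p under 0.05 in limma there were 3 of the 16 (18.8%, against 14.4%). Their median log2 fold change was -0.29. Enpp2 encodes autotaxin, which releases choline from lysophosphatidylcholine, and had a log2 level of 3.54, 3.45 and 3.47 in the young group, against 2.59, 2.85 and 2.18 in the aged group. All aged mice were below the narrow young range, and the log2 fold change was -0.95 (95% interval -1.43 to -0.46, adjusted p = 0.149 from limma). Pla2g4a, the cytosolic phospholipase that releases arachidonate, had a log2 fold change of -0.73 (adjusted p = 0.196 from limma) and Pnpla8, a mitochondrial phospholipase, one of -0.47 (adjusted p = 0.290 from limma). In the sphingomyelin cycle the sphingomyelinases Smpd1 (lysosomal) and Smpd2 (neutral), which release phosphocholine, had log2 fold changes of -0.54 and -0.55 (adjusted p = 0.196 and 0.232 from limma). The list as a whole was not lower, with 3 of its 6 tested genes higher in mean and a median of 0.06, and the sphingomyelinases Smpd3 (0.24) and Smpd4 (-0.09) overlapped between the groups. Smpd1 was tight within each group, at 6.43 ± 0.08 in young and 5.88 ± 0.02 in aged muscle (SD, n = 3 each).

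Other steps had genes that were higher in aged mice without overlap. Over the 61 genes tested there were 5 of these (8.2%), a share near the 7.92% of all genes. They were Pisd, Lpin2, Slc44a1, Sardh and Plpp1. Plpp1, of the diacylglycerol supply list, had a log2 fold change of 0.46 (adjusted p = 0.380 from limma). Pisd, which makes phosphatidylethanolamine from phosphatidylserine in mitochondria, had log2 levels of 2.42, 2.42 and 2.30 in the young group, against 3.19, 2.92 and 3.37 in the aged group. Every aged mouse was higher, and the log2 fold change was 0.78 (95% interval 0.37 to 1.20, adjusted p = 0.152 from limma). Lpin2, a phosphatidate phosphatase that supplies diacylglycerol, had a log2 fold change of 1.79 (95% interval 0.79 to 2.79, adjusted p = 0.162 from limma), which was 1.103 with normexp background correction and 1.30 with the slide row as a block. The choline transporter Slc44a1 had 0.51 (adjusted p = 0.309 from limma), and its other probes gave 0.42 and 1.08, the latter with overlapping groups. Sardh, which oxidises sarcosine in choline breakdown, had 0.76 (adjusted p = 0.222 from limma), from a dim probe that was well above background in 2 of 3 young mice, and 0.17 with normexp background correction. The other 6 of the 7 genes tested in its list, choline oxidation and methyl donor supply, were lower in mean in aged mice (85.7%, against 56.9% of all genes), with a median of -0.23 over the 7. Of these, Mat2b, a subunit of the enzyme that makes S-adenosylmethionine, was lower without overlap (-0.35, adjusted p = 0.404 from limma). So was Aldh7a1, which oxidises betaine aldehyde (-0.31, adjusted p = 0.504 from limma). None of the 6 lower genes had an unadjusted p under 0.05 in limma. Pcyt1b, the second cytidylyl transferase gene, and Chdh, the first enzyme of choline oxidation, were too dim to be tested.

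**Figure D4:**
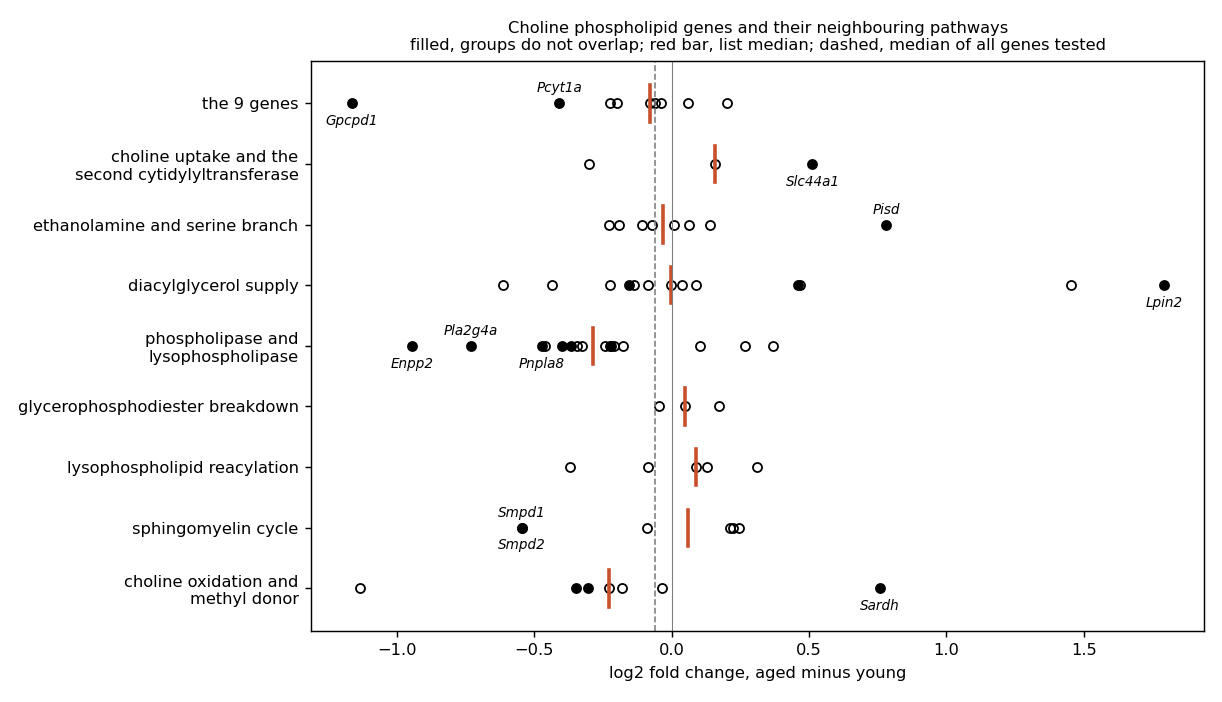
Log2 fold change, aged minus young (horizontal axis), of the 9 genes and of the 61 genes tested from 8 related lists, 1 point per gene. Filled points are genes whose groups do not overlap, red bars list medians, and the dashed line the median of all genes tested (-0.06). The phospholipase list has 13 of 16 points below 0, and Gpcpd1 (-1.16) has the lowest value in the plot.

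Markers of muscle and of other cell types were measured on the same arrays. All 12 muscle fibre markers were tested, and their summed signal was 6816 to 8281 times the 75th percentile in young and 5757 to 7288 times in aged mice. The summed signal of 9 of 10 fibroblast markers (481 to 535 in young, 233 to 375 in aged mice), 6 of 10 erythrocyte markers (211 to 343, 101 to 166) and 10 of 10 endothelial markers (71.3 to 91.3, 47.5 to 69.4) was lower in aged mice without overlap, in the same direction as Gpcpd1, Pcyt1a and most genes of the phospholipase and choline oxidation lists. The fibroblast sum was made up mostly of Dcn, and 5 of the 9 fibroblast markers were lower without overlap (55.6%, against 13.9% of all genes). Col3a1, Lum and Fbln2 overlapped, as did Dpt, which was higher in mean in aged mice (0.81). The erythrocyte sum was made up mostly of Hba-a1 and Hbb-bt, and 2 of the 6 erythrocyte markers were lower without overlap (33.3%). The endothelial sum was made up mostly of Flt1 and Vwf, and 3 of the 10 endothelial markers were lower without overlap (30%, against 13.9% of all genes). Pecam1 (0.52), Tek (0.46) and Emcn (0.06) were higher in mean in aged mice. The summed signal overlapped for 9 of 10 macrophage (38.6 to 45.8, 41.6 to 43.6), 10 of 10 Schwann cell (27.4 to 47.0, 26.4 to 43.6), 9 of 10 adipocyte (241 to 445, 268 to 409) and 4 of 10 lymphocyte markers (2.70 to 2.80, 2.29 to 3.04), while Lep, Cd163, Tcf21, Cd3d and Cd79a were too dim to be tested. Among the 10 Schwann cell markers, 7 were lower without overlap (70%, against 13.9% of all genes) and Mbp was higher without overlap (1.33). The macrophage sum was made up mostly of Itgam and Csf1r. Of the 9 macrophage markers, 4 were higher in every aged mouse than in any young mouse (44.4%, against 7.92% of all genes). These were Adgre1 (0.64), Cd68 (1.08), Mrc1 (0.46) and Fcgr1 (1.63). The Fcgr1 probe was dim, well above background on only 3 of 6 arrays, the smallest number that passes the filter. Lower in mean were Itgam (-0.26), Csf1r (-0.05) and Mertk (-0.39), with overlapping groups. The median log2 fold change over the 9 was 0.46. The part of these cells in the values of the choline genes was not tested.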

How the data were processed

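Per the labels, total RNA of the gastrocnemius muscle was converted to Cy3-labelled cRNA and put on 1 array for each mouse. The authors deposited Agilent Feature Extraction output (version 11.0.1.1 in the file headers, 9.5 in the submitters' processing notes). The deposited values are intensities: the processed signal, background-subtracted and detrended within the array, with no scaling from array to array. Its values equal those of the deposited series matrix (largest difference 0). The methods state no normalization or test for the arrays.

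Of 62976 spots, 59305 were not controls. Spots flagged as outliers (161 to 212 per array) were left out, replicate spots were averaged as log2, and each array was scaled to the 75th percentile over its probes (209 to 310.5). Accessions, matched without version to RefSeq (GRCm38.p6), named 28331 of 55681 probes. Array coordinates are on mm9, and none of them is given here. The coordinates upstream of Pcyt1a are on GRCm38.p6. Probes well above background on at least 3 of 6 arrays were kept, and the brightest represented its gene (20900 genes). No probe was saturated. The comparison used lmFit and eBayes of limma 3.58.1 (R 4.3.3), with Benjamini-Hochberg adjustment over all genes. The fit was tested on simulated data. With 3 mice a group, the smallest p of an exact permutation test is 0.1. The number of arrays limits the precision.

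All 9 genes are named whatever their values. From the other lists, genes were named with an adjusted p under 0.05, or, among those with an unadjusted p under 0.05 and no overlap, the 3 largest differences in each direction per list. The related glycerophosphodiesterases, Smpd3, Smpd4, Mat2b, Aldh7a1, Plpp1, Pcyt1b and Chdh were named after their values were seen. So were the macrophage, endothelial, fibroblast, erythrocyte, Schwann cell and dim markers. The 9 genes, the lists and the alternatives were chosen with earlier results of these data known.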

Additional observations from a re-analysis of the deposited data

How the results depend on the processing

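None of the 9 genes passed an adjusted p of 0.05 under any of the 19 alternatives, nor did any gene of the related lists. Of 171 values of the 9 genes under the alternatives, 19 changed sign, all in the 7 genes with overlapping groups, and Gpcpd1 and Pcyt1a changed sign in none. Several alternatives could not change a sign. Other filters on dim probes, each probe on its own, the mean-variance trend and the replicate block left all 9 log2 fold changes as they were. The series matrix values were the same data. Gpcpd1 and Pcyt1a, with a single probe each, were also fixed under the mean of all probes. Gpcpd1 had an unadjusted p under 0.05 in limma in all 19 (0.000181 to 0.00812, adjusted p 0.0520 to 0.284) and Pcyt1a in 10 of 19 (0.0185 to 0.184).

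The median over the 9 genes was -0.18 with normexp background correction and -0.23 with median scaling, which also moved the median of all genes from -0.06 to -0.21, so that Cept1 was -0.089. It was -0.38 to -0.0067 with 1 mouse left out, lowest without aged mouse 1. Pemt was 0.20 as the mean of its probes. With slide row as a block, a fit that sets only aged mouse 1 against young mice, Chka was 0.85, Chkb 0.22, Chpt1 0.079, Cept1 -0.13 and Lypla2 -0.15. With 1 mouse left out, Chka was between -0.54 and 0.23, Chkb between -0.41 and 0.018, Cept1 between -0.034 and 0.19, Pemt between -0.23 and 0.14, and Lypla1 between -0.18 and 0.022. Of the other named genes, Pla2g4a was -0.44 and Smpd2 -0.39 with normexp, and Slc44a1 was 0.26 with slide row as a block. The cause of the reversals was not tested.

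Over all genes, 53 passed the threshold. There were 8 with no filter on dim probes (36710 genes tested), 35 when detection on all 6 arrays was required (18551 tested), and 1 to 199 with 1 mouse left out, 199 without aged mouse 1 and 1 without aged mouse 3. With the replicate number as a block it was 5. Mice of the same number were different animals, and their deviations from the group means correlated at -0.06, -0.27 and 0.03, so the numbers do not pair them. With the replicate block none of the 9 genes passed the threshold, as without it, and Gpcpd1 had an adjusted p of 0.202 in limma. Pcyt1a then had an unadjusted p of 0.093 in limma, against 0.0369 without the block. The dim probes of Chka limit what can be said of that gene.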
